A study of Mus musculus with 70 samples.

Results

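The proteasome genes of mouse microglia were followed across 5 tables of whole-number counts, 70 libraries and 17 groups. The genes were the protein-coding entries whose symbols begin with Psma, Psmb, Psmc, Psmd, Psme or Psmf and a number, with Psmb8 and Psmb9 left out. This rule found 44 of the 25806 genes in the tables: 8 Psma, 9 Psmb, 7 Psmc, 14 Psmd, 5 Psme and 1 Psmf gene. No measured value entered the rule. The symbols hold more than the constitutive particle: Psmb10 encodes an immunoproteasome subunit, Psma8 a testis subunit and Psmb11 a thymus subunit, and Psmc3ip encodes a recombination protein that only shares its symbol with an ATPase gene. In all, 40 of the 44 genes had enough counts to be tested in at least 1 table. Psma8, Psmb7, Psmb11 and Psmc3ip were tested in none, and the catalytic beta gene Psmb7 was listed with only 14 to 53 counts per table.

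The proteasome breaks down proteins that carry ubiquitin chains. Its 20S core is a barrel of alpha rings (Psma genes), which gate the entrance, and beta rings (Psmb genes), which hold the cutting sites. The 19S regulatory particle has ATPases that unfold the substrate (Psmc genes) and non-ATPase subunits that bind or remove ubiquitin (most Psmd genes). Other caps can take the place of the 19S particle: PA28 alpha and beta (Psme1, Psme2) form a ring that interferon-gamma induces together with the immunoproteasome subunits Psmb8, Psmb9 and Psmb10, PA28 gamma (Psme3) is nuclear, and PA200 (Psme4) is a single large nuclear protein. Psmf1 encodes an inhibitor of the core. In microglia, the resident macrophages of the brain, immunoproteasome and PA28 genes are known to respond to interferon.

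Microglia were sorted as CD11b+ CD45+ Ly6G- CD206- cells, 500 per library, and sequenced by CEL-Seq2, which counts a tag at the 3′ end of each transcript. The mice carried a tamoxifen-inducible Cre (CreERT2) in 1 Cx3cr1 allele, from the Littman or the Jung line, or were wild type (Cre-), so that a Littman Cre+ mouse also lacked 1 working Cx3cr1 allele that a Cre- mouse had. The postnatal table held tamoxifen-treated Cre- (5 libraries) and Littman Cre+ mice (5), and Jung Cre+ mice with a heterozygous Rosa26YFP reporter after oil (5) or tamoxifen (4). The libraries of the vehicle and inhibitor table were from pups. This table held vehicle-treated Cre- mice with tamoxifen (5), Littman Cre+ mice with tamoxifen (4) and with oil (4), and mice given UC2288, which the labels name as an inhibitor of CDKN1A function, with tamoxifen, Cre- (3) and Littman Cre+ (5). The BLZ-titled table held Littman Cre+ mice given BLZ945, an inhibitor of the CSF1 receptor on which microglia depend, with oil (3) or tamoxifen (4) and Jung Cre+ Rosa26YFP mice with oil (4) or tamoxifen (4). Of the Jung libraries in this table, the oil group's treatment label names oil alone. The adult tables held Littman Cre+ mice with oil (4) or tamoxifen (3), and adult-titled Jung mice with oil (4) or tamoxifen (4) whose treatment labels name BLZ945. The titles set these groups, and the labels do not settle which Jung libraries of these tables received BLZ945. Adults of 6 to 15 weeks received 4 mg tamoxifen per dose, UC2288 and BLZ945 were dosed at 100 mg/kg, and pups received 0.1 mg tamoxifen at the early or 0.2 mg at the later neonatal schedule and were taken at day 8 or 14. The labels do not give the schedule or age of each pup library, nor do they say that replicates were separate animals, so p-values measure the spread between these libraries only.

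Libraries held 116083 to 450461 counts, shallowest in the vehicle and inhibitor table (116083 to 277680) and deepest in the postnatal table (329329 to 450461). The proteasome genes took 0.275% to 0.584% of the counts of a library. Cx3cr1 was lower in Littman Cre+ than in Cre- libraries where both were given tamoxifen. It read 1510 in counts-per-million (CPM) units in postnatal Littman Cre+ libraries against 4071 in Cre- libraries. In the vehicle groups given tamoxifen it read 1026 against 2972. Between oil-treated Cre+ and tamoxifen-treated Cre- vehicle libraries no gene passed an edgeR adjusted p of 0.05. With 0 of 4953 tested genes called there, the missing Cx3cr1 call is no statement about this gene. Neutrophil markers summed to 714 to 3533 CPM in 4 libraries and to at most 2.47 CPM in the others; the 4 were postnatal Cre- replicate 2, BLZ-titled Littman oil replicate 3, BLZ-titled Littman tamoxifen replicate 1 and UC2288 Cre- replicate 1, although the sort left out Ly6G+ cells. UC2288 Cre+ replicate 3 stood apart from its group, with a microglia marker sum of 20503 CPM against 8013 to 9567 CPM in the other 4. All levels below are CPM with TMM scaling and are compared between groups of a table, not between genes.

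Within each table edgeR's quasi-likelihood test was fitted to all genes, and a gene was called at a Benjamini-Hochberg adjusted p under 0.05. Over 15 comparisons, 6 different proteasome genes were called, in 5 comparisons, 13 times in all, and each time the first-named group was higher. In postnatal Littman Cre+ against Cre- mice, 2 of 38 tested proteasome genes were called (5.26%), and the background was 7.8% of all 7076 genes tested. In vehicle-treated mice with tamoxifen, Cre+ against Cre-, 4 of 36 were called (11.1%) against a background of 27.2%. In vehicle-treated Cre+ mice, tamoxifen against oil, 3 of 36 were called (8.33%) against a background of 31.4%. The proteasome genes were therefore called no more often than other genes in these 3 comparisons, and the last 2 share the 4 tamoxifen-treated Cre+ libraries. Under UC2288, Cre+ against Cre-, 3 of 36 were called (8.33%) against a background of 4%. In the test of whether the UC2288 difference itself differed between Cre+ and Cre- mice, 1 of 36 was called (2.78%) against a background of 1.94%.

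In the other 10 comparisons edgeR called no proteasome gene. The background there was 0.0848% for postnatal Jung tamoxifen against oil, 0.353% for the difference between the Littman and Jung contrasts in the postnatal table, 0.0581% for BLZ-titled Littman tamoxifen against oil, and 0% for both BLZ-titled Jung and the BLZ-titled line difference. It was 0% for vehicle oil Cre+ against tamoxifen Cre-, 0.727% for UC2288 against vehicle in Cre+ and 0.0202% in Cre-, 0% for adult-titled Jung and 0.0181% for adult Littman mice. At an unadjusted p under 0.05 these comparisons held, in the same order, 1, 2, 2, 2, 2, 3, 2, 4, 1 and 0 proteasome genes of the 36 or 38 tested, beside 5.54%, 9.58%, 7.15%, 5.56%, 8.08%, 5.86%, 16.8%, 9.49%, 2.21% and 2.79% of all genes tested. DESeq2 called no proteasome gene in any of them. With so few calls among all genes, the absence of proteasome calls in these tables is a statement about all genes and not about this set.

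The direction of change over the tested proteasome genes varied between contrasts. In postnatal Littman mice 32 of 38 had a positive log2 fold change with a median of 0.17, in UC2288 Cre+ against Cre- mice 30 of 36 with a median of 0.30, and in adult-titled Jung mice 26 of 36 with a median of 0.11. In the vehicle groups the genes were divided, 18 of 36 positive for Cre+ against Cre- (median 0.00) and 17 of 36 for tamoxifen against oil (median -0.03). For UC2288 against vehicle 10 of 36 were positive in Cre- mice with a median of -0.18 and 26 of 36 in Cre+ mice with a median of 0.13, and the UC2288 Cre- libraries also enter the UC2288 contrast of Cre+ and Cre-. In BLZ-titled Jung mice 24 of 36 were positive (median 0.13), in BLZ-titled Littman mice 20 of 36 (0.05), in postnatal Jung mice 19 of 38 (-0.01), in adult Littman mice 21 of 38 (0.04) and in vehicle oil Cre+ against Cre- mice 17 of 36 (-0.02). The medians over all tested genes were near 0 in each comparison, since the scaling sets them there.

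**Figure D1:**
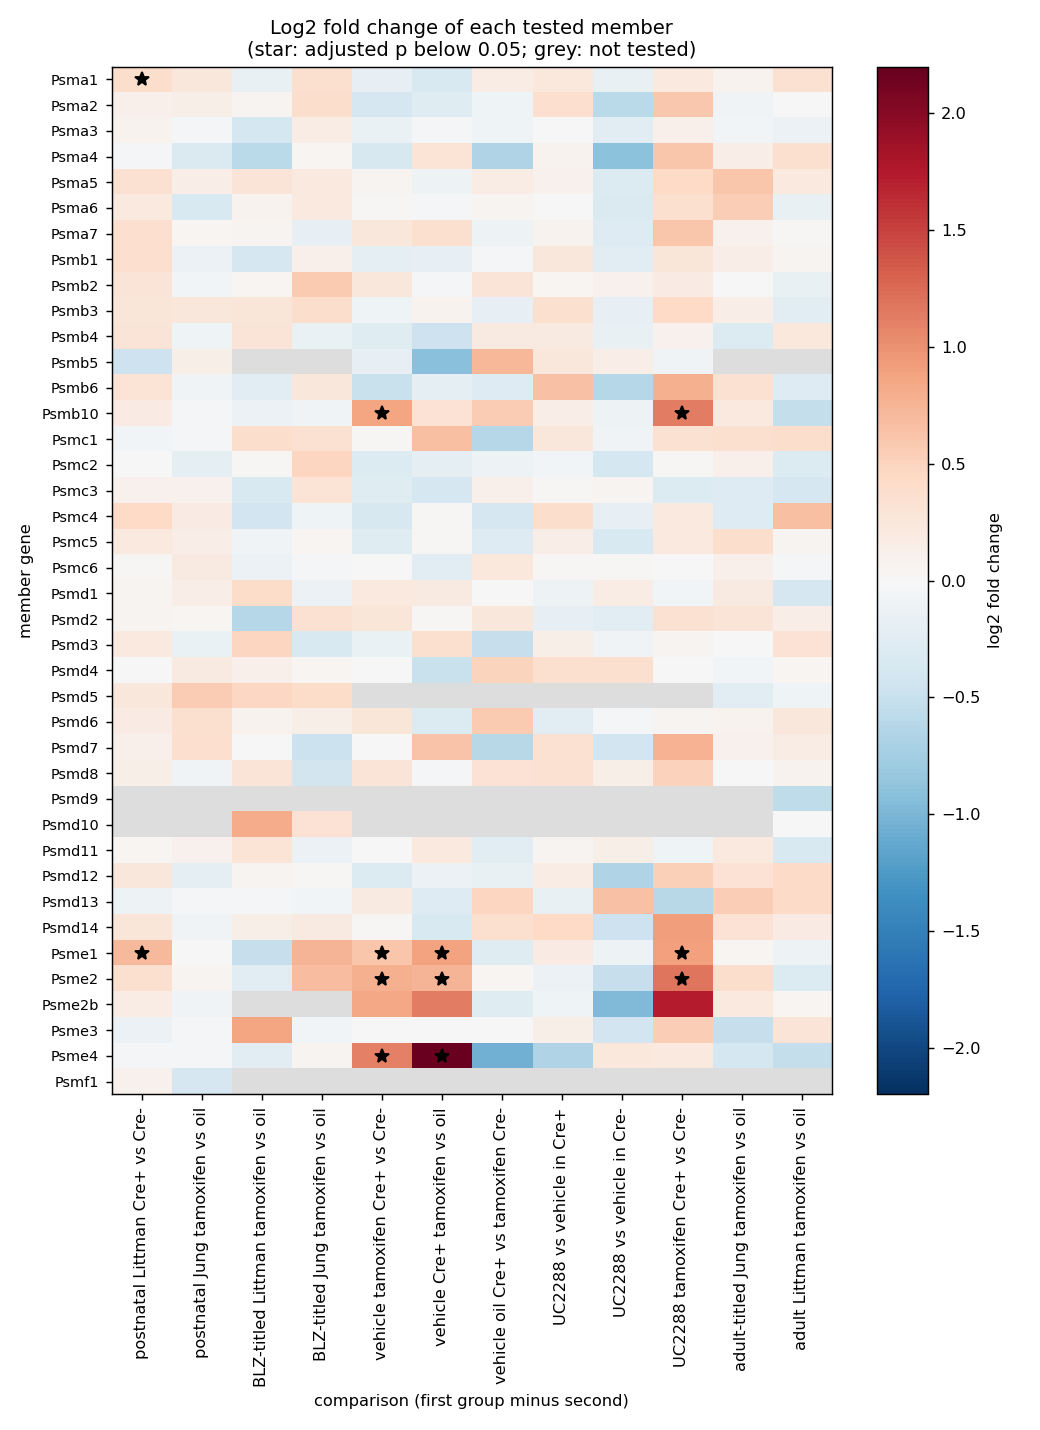
Heat map of the log2 fold change (colour, red for higher in the first-named group) of each of the 40 tested proteasome genes (vertical axis) in the 12 comparisons of 2 groups (horizontal axis), with a star where edgeR's adjusted p was under 0.05 and grey where a gene was not tested. The 12 stars all lie on red cells, 11 of them in the rows of Psmb10, Psme1, Psme2 and Psme4, and the deepest called cell is Psme4 at 2.18 in vehicle Cre+ tamoxifen against oil.

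PA28 alpha, encoded by Psme1 (ENSMUSG00000022216, chromosome 14, 55578123 to 55581529, plus strand, GRCm38), was the gene called most often, in 4 comparisons. In the postnatal table it read 217, 171, 200.0, 211 and 254 CPM in the Littman Cre+ libraries and 112, 167, 106, 125 and 137 CPM in the Cre- libraries. Every Cre+ library was above every Cre- library, and the means were 211 ± 30.0 and 129 ± 24.1 CPM (SD, n = 5 each). The groups did not overlap for 401 of all 7076 tested genes and for 1 of the 38 tested proteasome genes. The log2 fold change was 0.71 ± 0.13 (SE), with an adjusted p of 0.000176 by edgeR, and the call held when any 1 of the 10 libraries was left out. In the Jung line of the same table Psme1 read 178, 133, 153, 158 and 113 CPM after oil and 149, 148, 145 and 148 CPM after tamoxifen. These groups overlapped, the log2 fold change was 0.0014, and the adjusted p by edgeR was 0.999. The test of the difference between the lines gave 0.71 ± 0.20 with an edgeR adjusted p of 0.0795, so a difference between the lines was not called. It passed without Littman Cre- replicate 2 (edgeR adjusted p = 0.0469) or Littman Cre+ replicate 2 (0.0364). The Littman contrast compared genotypes and the Jung contrast compared oil with tamoxifen, so line, tamoxifen and Cx3cr1 dose cannot be told apart between them.

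The vehicle groups held the oil control that the postnatal Littman mice lacked. Psme1 read 353, 351, 272 and 271 CPM in tamoxifen-treated Cre+ libraries, 201, 228, 248, 187 and 157 CPM in tamoxifen-treated Cre- libraries, and 136, 152, 193 and 198 CPM in oil-treated Cre+ libraries. The Cre+ libraries with tamoxifen were above all libraries of both control groups, which overlapped each other. Such separation was common here. Of 4953 tested genes, 1224 did not overlap against Cre- and 1571 against oil, and of 36 proteasome genes 2 and 5 did not. The mean of the Cre+ libraries with tamoxifen, 312 ± 46.3 CPM (n = 4), was 0.61 ± 0.21 log2 units above Cre- (204 ± 35.5 CPM, n = 5, edgeR adjusted p = 0.0310) and 0.89 ± 0.24 above oil (169 ± 30.5 CPM, n = 4, edgeR adjusted p = 0.00434). The call against oil held without any 1 of the 8 libraries. The call against Cre- was lost without any 1 of 5 libraries, Cre- replicates 1, 4 and 5 and Cre+ replicates 1 and 2 (edgeR adjusted p of up to 0.0947), and with upper-quartile scaling (0.0588) or no low-count filter (0.134). Between the control groups the log2 difference was -0.27, with no call. With UC2288, Psme1 read 286, 455, 219.6, 418 and 406 CPM in Cre+ libraries against 169, 163 and 233 CPM in Cre- libraries. The lowest Cre+ library, replicate 3, lay below the highest Cre- library, and the log2 fold change was 0.91 ± 0.25 with an edgeR adjusted p of 0.0231. Without that Cre+ library it was 1.03 with an adjusted p of 0.00366 by edgeR, and the call was lost without any 1 of 5 others, Cre- replicates 1 and 2 and Cre+ replicates 2, 4 and 5 (edgeR adjusted p of up to 0.167), and with the 2 compared groups fitted alone (0.174).

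PA28 beta, encoded by Psme2 (ENSMUSG00000079197, chromosome 14, 55587441 to 55591113, minus strand), pairs with PA28 alpha in the ring. In the vehicle groups it read 188, 332, 199 and 256 CPM in tamoxifen-treated Cre+ libraries, 125, 131, 127, 118 and 198 CPM in Cre- libraries, and 119, 136, 163 and 158 CPM in oil-treated Cre+ libraries. The Cre+ libraries with tamoxifen were above all oil libraries, while the Cre- library at 198 CPM fell among them. The log2 fold changes were 0.79 ± 0.22 against Cre- (edgeR adjusted p = 0.00859) and 0.75 ± 0.24 against oil (edgeR adjusted p = 0.0177). With UC2288 it read 179.8, 246, 156, 289.8 and 249 CPM in Cre+ and 91.7, 85.6 and 114 CPM in Cre- libraries, with no overlap and a log2 fold change of 1.18 ± 0.27 (edgeR adjusted p = 0.00566). In this UC2288 contrast 365 of all 4953 tested genes and 6 of the 36 tested proteasome genes did not overlap. The vehicle calls were lost without Cre+ replicate 2 (edgeR adjusted p = 0.0693 and 0.0997), that against oil also without oil replicate 1 (0.0683) or with no low-count filter (0.0667), and the UC2288 call without Cre- replicate 1 (0.0597), one of the libraries with raised neutrophil markers. In the postnatal table the Cre+ mean was 106 ± 21.5 CPM and the Cre- mean 83.0 ± 17.5 CPM, a log2 difference of 0.35 ± 0.18 that was not called (edgeR adjusted p = 0.268).

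A near-identical copy, Psme2b, limits how far the Psme2 counts can be assigned. Of the 81-base stretches of its transcripts, 58.3% also occur in Psme2, so reads of either gene can be split or lost by the counting. Psme2b read 85.7 CPM in the vehicle Cre+ tamoxifen group, 47.9 CPM in the Cre- group and 42.5 CPM in the oil group on average, and its log2 fold changes of 0.85 and 1.13 were not called (edgeR adjusted p = 0.121 and 0.0630). With UC2288 it averaged 82.0 CPM in Cre+ and 23.6 CPM in Cre- libraries, from 68 and 12 counts, which was also not called (edgeR adjusted p = 0.0760).

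**Figure D2:**
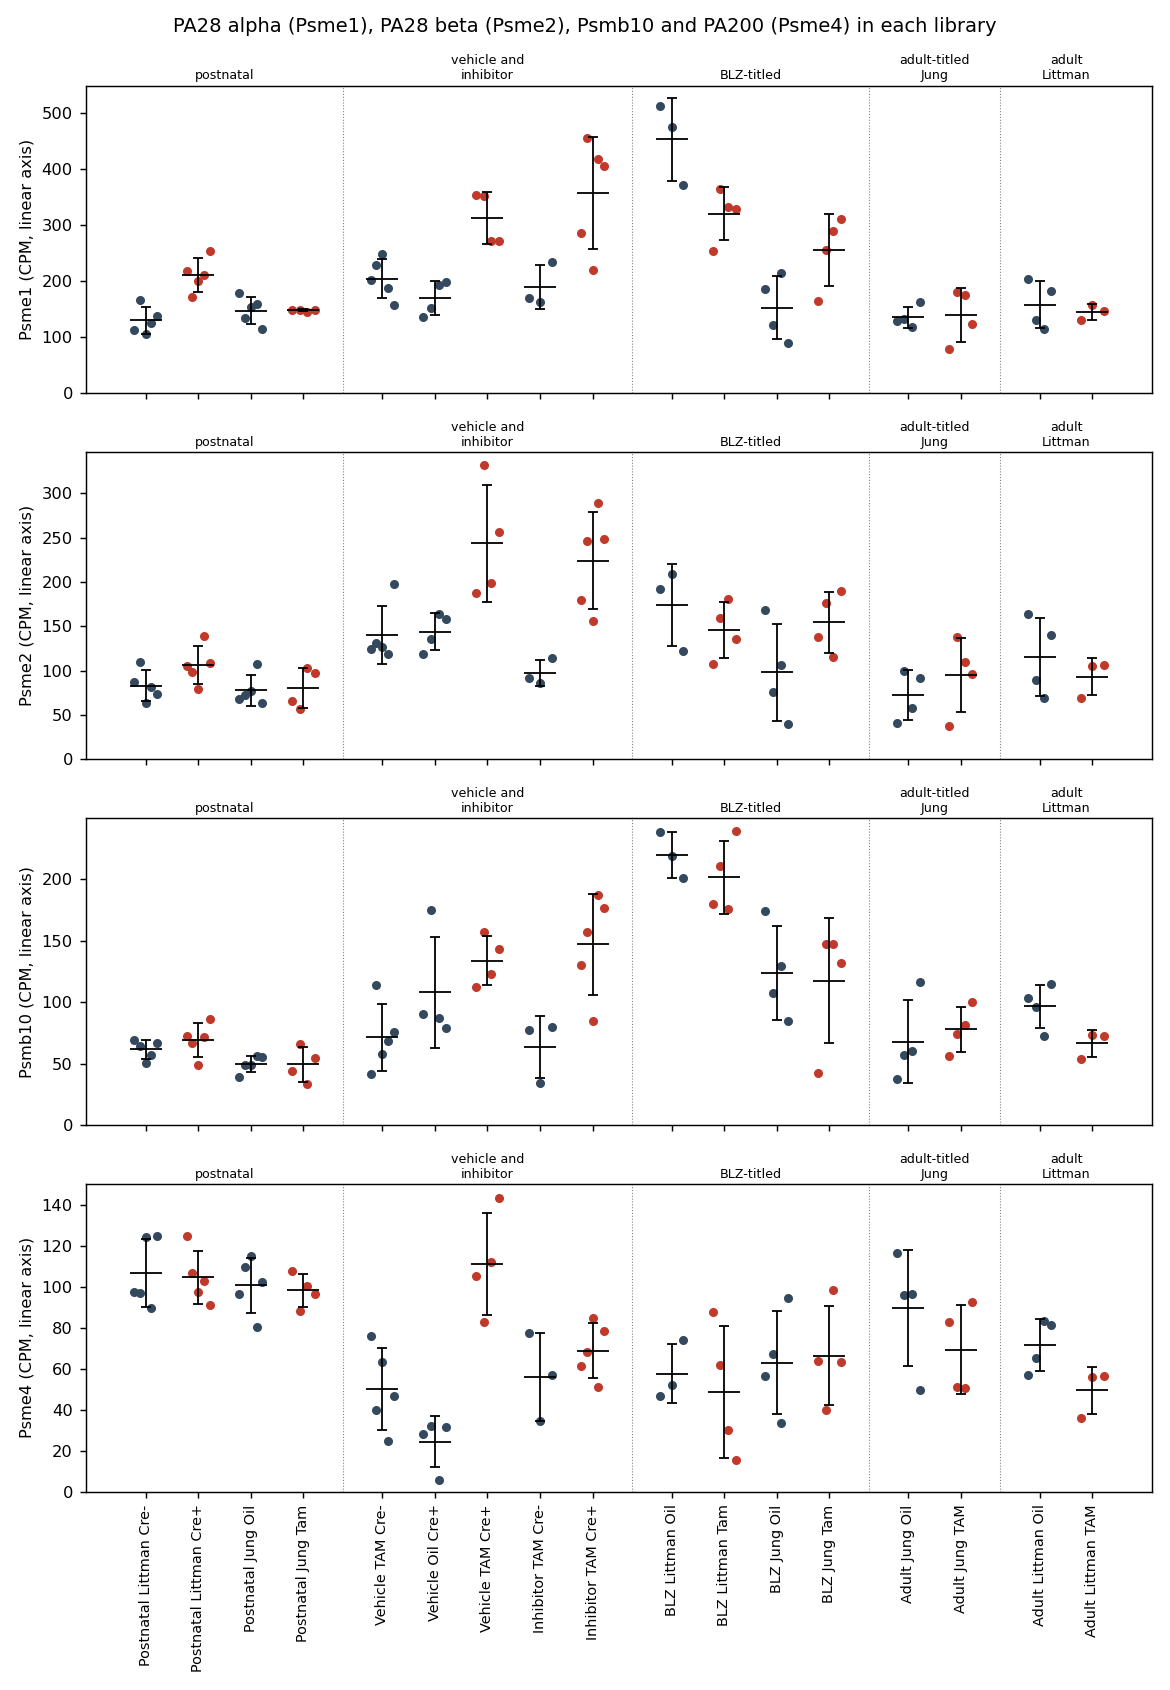
Levels of Psme1, Psme2, Psmb10 and Psme4 (vertical axes, CPM) in each library (points; red for tamoxifen-treated Cre+ groups) of all 17 groups, with the mean and SD of each group in black and dotted lines between tables. For Psme1 the tamoxifen-treated Littman Cre+ libraries of the postnatal and vehicle groups lie above all libraries of their control groups, while for Psme4 this is seen in the vehicle groups and not in the postnatal groups.

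The promoters of the 4 activator and immunoproteasome genes that were called are shown because these genes carried most of the calls. Each is the RefSeq window of GRCm38.p6 from 250 bases before to 50 bases after an annotated start, 5′ to 3′ on the gene's strand. Capitals mark matches, on either strand, to GAAANNGAA (the core of the interferon-stimulated response element), TTCNNNGAA (the gamma-activated site) or TGACNNNGC (the antioxidant response element, to which Nfe2l1 and Nfe2l2 bind).
Psme1, chr14:55578244-55578543, plus strand: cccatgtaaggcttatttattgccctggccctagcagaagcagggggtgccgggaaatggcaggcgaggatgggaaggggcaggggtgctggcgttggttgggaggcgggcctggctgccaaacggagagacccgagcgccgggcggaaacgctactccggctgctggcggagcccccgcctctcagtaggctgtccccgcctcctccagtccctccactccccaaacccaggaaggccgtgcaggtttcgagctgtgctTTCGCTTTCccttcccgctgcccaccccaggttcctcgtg
Psme2, 1 of its 2 windows, chr14:55590972-55591271, minus strand: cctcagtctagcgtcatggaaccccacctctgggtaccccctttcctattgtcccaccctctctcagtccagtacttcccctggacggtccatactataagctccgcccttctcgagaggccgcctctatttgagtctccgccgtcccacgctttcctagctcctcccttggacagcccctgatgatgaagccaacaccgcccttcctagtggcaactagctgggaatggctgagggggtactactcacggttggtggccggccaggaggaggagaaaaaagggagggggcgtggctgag
Psmb10, chr8:105938343-105938642, minus strand: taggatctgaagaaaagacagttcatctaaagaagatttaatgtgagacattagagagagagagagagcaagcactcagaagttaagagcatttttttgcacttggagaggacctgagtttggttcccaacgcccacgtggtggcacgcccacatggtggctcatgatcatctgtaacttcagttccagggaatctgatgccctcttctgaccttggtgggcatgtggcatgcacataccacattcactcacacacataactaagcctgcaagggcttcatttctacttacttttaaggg
Psme4, chr11:30771525-30771824, plus strand: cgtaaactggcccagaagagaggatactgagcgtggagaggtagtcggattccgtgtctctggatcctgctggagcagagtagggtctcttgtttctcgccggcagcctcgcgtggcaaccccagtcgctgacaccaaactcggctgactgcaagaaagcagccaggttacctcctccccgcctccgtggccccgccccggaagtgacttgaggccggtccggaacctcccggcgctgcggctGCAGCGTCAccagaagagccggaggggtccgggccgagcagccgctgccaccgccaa
The Psme1 window held 1 match to GAAANNGAA on the minus strand, just after the start, and the Psme4 window 1 match to TGACNNNGC, just before it. The Psme2 and Psmb10 windows held none of the 3 motifs. GAAANNGAA occurred in 8.56% of the 32851 windows of all genes and in those of 6 of the 37 proteasome genes with a window, Psmb3, Psmb4, Psmc2, Psmd4, Psmd9 and Psme1. TGACNNNGC occurred in 12.4% of all windows and in those of 6 proteasome genes, Psmb5, Psmb6, Psmc6, Psmd9, Psmd12 and Psme4. TTCNNNGAA occurred in 8.3% of all windows and, among proteasome genes, in that of Psmd2, and CCAAT, the NF-Y box, occurred in 37.4% of all windows and in those of 14 proteasome genes. Psme1 alone of the called activator genes thus had an interferon element core in this window, and a match is only a description of these letters.

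PA200, encoded by Psme4 (ENSMUSG00000040850, chromosome 11, 30771726 to 30880361, plus strand), had the largest fold change of any called proteasome gene. It read 105, 83.1, 112 and 143 CPM in vehicle-treated Cre+ libraries with tamoxifen, 76.2, 39.8, 63.4, 24.9 and 46.5 CPM in Cre- libraries, and 28.3, 31.9, 5.83 and 31.7 CPM in oil-treated Cre+ libraries. The tamoxifen-treated Cre+ libraries were above all control libraries. The log2 fold changes were 1.12 ± 0.31 against Cre- (edgeR adjusted p = 0.00725) and 2.18 ± 0.39 against oil (edgeR adjusted p = 7.6e-05), from 96, 42 and 14 counts in the 3 groups. The oil-treated libraries were also lower than Cre- on average, by a log2 difference of -1.06 that was not called (edgeR adjusted p = 0.797). Both calls held without any 1 library. In the postnatal and UC2288 groups Psme4 was not called: it averaged 105 CPM in postnatal Cre+ and 107 CPM in postnatal Cre- libraries, and 68.8 CPM in Cre+ and 56.1 CPM in Cre- libraries with UC2288 (log2 0.22, edgeR adjusted p = 0.868). Between UC2288 and vehicle in Cre+ mice the log2 difference was -0.66 and was not called (edgeR adjusted p = 0.256), nor was the test of whether the Cre difference itself depended on UC2288 (-0.89, edgeR adjusted p = 0.284).

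PA28 gamma (Psme3), the nuclear relative of PA28 alpha and beta, was not called in any comparison. It averaged 74.9, 75.5 and 76.5 CPM in the vehicle Cre+ tamoxifen, Cre- and oil groups, and 82.1 and 88.7 CPM in postnatal Cre+ and Cre- libraries. With UC2288 it averaged 81.9 ± 37.6 CPM in Cre+ (n = 5) and 52.9 ± 31.2 CPM in Cre- libraries (n = 3), groups that overlapped, with a log2 difference of 0.54 (edgeR adjusted p = 0.613). Its largest log2 difference was 0.86 in BLZ-titled Littman mice (67.2 CPM with tamoxifen and 36.7 CPM with oil), which was not called (edgeR adjusted p = 0.698). Psmf1, the inhibitor of the core, was tested in the postnatal table alone and was not called there.

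Psmb10 (ENSMUSG00000031897, chromosome 8, 105935735 to 105938444, minus strand) encodes the immunoproteasome subunit that replaces the product of Psmb7 in newly built cores. It read 113, 157, 123 and 143 CPM in vehicle-treated Cre+ libraries with tamoxifen and 41.6, 114, 58.1, 68.4 and 75.6 CPM in Cre- libraries, where replicate 2 overlapped the Cre+ group. The means were 134 ± 19.9 and 71.5 ± 26.9 CPM, and the log2 fold change was 0.87 ± 0.29 (edgeR adjusted p = 0.0224), a call lost without Cre- replicate 1, Cre- replicate 3 or Cre+ replicate 2 (edgeR adjusted p of up to 0.0694) or with no low-count filter (0.0622). Oil-treated Cre+ libraries read 90.6, 175, 87.5 and 79.2 CPM, so the difference from oil was smaller, 0.32, and was not called (edgeR adjusted p = 0.437). With UC2288 Psmb10 read 131, 157, 85.0, 187 and 177 CPM in Cre+ and 77.2, 34.3 and 79.7 CPM in Cre- libraries, with no overlap and a log2 fold change of 1.12 ± 0.34 (edgeR adjusted p = 0.0489). This call was lost without any 1 of the 8 libraries other than Cre+ replicate 3 (edgeR adjusted p of up to 0.261), and by DESeq2 (0.0697). It was also lost with the 2 compared groups fitted alone (edgeR adjusted p = 0.144), no low-count filter (0.0704), upper-quartile scaling (0.0662) or sex as a covariate (0.0556). In the postnatal table Psmb10 averaged 69.3 CPM in Cre+ and 61.8 CPM in Cre- libraries and was not called (edgeR adjusted p = 0.710).

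The partners of Psmb10 that the rule left out were higher in the same vehicle and UC2288 groups. Psmb8 averaged 198 ± 50.8 CPM in vehicle Cre+ and 119 ± 46.8 CPM in Cre- libraries (log2 0.74, edgeR adjusted p = 0.0301), and Psmb9 89.0 and 42.4 CPM (log2 1.10, edgeR adjusted p = 0.0134). With UC2288 the log2 fold changes were 1.25 for Psmb8 and 1.71 for Psmb9, both called. Against oil, Psmb9 was called (log2 1.14, edgeR adjusted p = 0.0174) and Psmb8 was not (0.58, edgeR adjusted p = 0.103). In the postnatal Littman groups neither was called, with log2 differences of 0.46 for Psmb8 and 0.50 for Psmb9 (edgeR adjusted p = 0.156 and 0.224).

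Cell markers also differed between these groups. In the vehicle groups the summed microglia markers ranged from 7646 to 8452 CPM in tamoxifen-treated Cre+ libraries, 17315 to 19351 CPM in Cre- and 18604 to 22863 CPM in oil-treated Cre+ libraries, and 7 of the 10 markers were called lower in each contrast. The summed monocyte markers ranged from 106 to 282 CPM in the Cre+ tamoxifen group, 5.28 to 34.1 CPM in Cre- and 0 to 31.9 CPM in the oil group, mostly through Plac8 (mean 192 CPM against 9.48 and 5.40 CPM). Chil3 and Ly6c2 were at 0 in each of these groups, and S100a4 was at 0 in the Cre+ tamoxifen group alone. With UC2288 the microglia sum was 8013 to 20503 CPM in Cre+ and 15717 to 18723 CPM in Cre- libraries, and the monocyte sum was 106 to 330 CPM in Cre+ and 8.56 to 72.4 CPM in Cre- libraries, with Ly6c2 at 0 in Cre+. In the postnatal table the microglia sum was 18623 to 23486 CPM in Cre+ and 25816 to 29929 CPM in Cre- libraries, and the monocyte sum 28.1 to 86.3 CPM and 5.30 to 53.8 CPM, with Chil3 and Ly6c2 at 0 in Cre+. Border macrophage markers moved in both directions: they summed to 90.5 to 189 CPM in vehicle Cre+ libraries with tamoxifen, 329.96 to 547 CPM in Cre- and 333 to 414 CPM in oil-treated libraries, and to 113 to 311 CPM in postnatal Cre+ and 91.3 to 133 CPM in postnatal Cre- libraries. Of these, Mrc1, the gene of CD206, was called lower in both vehicle contrasts (mean 114 CPM against 376 and 334 CPM) and higher in the postnatal one (163 against 108 CPM). Cbr2 and Cd163 were at 0 in the vehicle Cre+ tamoxifen group, Cd163 and F13a1 in the oil group, and F13a1 and Ms4a7 in the Cre- group. In the postnatal table F13a1 was at 0 in both the Cre+ and Cre- groups, and Ms4a7 was at 0 in the Cre- group. With UC2288 the border macrophage sum was 127 to 347 CPM in Cre+ and 319 to 717 CPM in Cre- libraries, and Mrc1 was called lower (141 against 481 CPM). Astrocyte markers summed to 64.6 to 102 CPM in vehicle Cre+ libraries with tamoxifen, 22.8 to 56.0 CPM in Cre- and 31.9 to 40.8 CPM in oil-treated libraries, to 92.5 to 182 CPM in postnatal Cre+ and 149 to 231 CPM in postnatal Cre- libraries, and to 17.0 to 139 CPM in Cre+ and 28.5 to 82.1 CPM in Cre- libraries with UC2288. Endothelial markers summed to 2.81 to 24.7 CPM in postnatal Cre+ and 22.3 to 45.7 CPM in postnatal Cre- libraries. The part of these marker differences in the proteasome results was not tested. In such bulk libraries, fewer cells of a type and less RNA per cell cannot be told apart.

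The constitutive core genes gave few calls. Of the alpha genes, Psma1 (ENSMUSG00000030751, chromosome 7, 114264606 to 114276118, minus strand) was called in postnatal Littman mice. It read 489.9, 281, 367, 263 and 306 CPM in Cre+ and 309.9, 245, 233, 256 and 262 CPM in Cre- libraries, groups that overlapped, and the log2 fold change was 0.39 ± 0.13 (edgeR adjusted p = 0.0436). The value moved most with Cre+ replicate 1, in which all proteasome genes together read 4892 CPM against 3386 to 3978 CPM in the other 4 Cre+ libraries. Without it the log2 fold change was 0.22 and the edgeR adjusted p was 0.319. The call was also lost without Cre+ replicate 3 or any 1 of Cre- replicates 2 to 5 (edgeR adjusted p of up to 0.12), by DESeq2 (0.0862) and with the 2 compared groups fitted alone (0.0952). Of 7 tested alpha genes, 6 had a positive log2 fold change there, from -0.02 for Psma4 to 0.39 for Psma1. In the vehicle Cre+ against Cre- contrast 3 of 7 were positive, from -0.36 for Psma2 to 0.24 for Psma7, and none was called in either vehicle contrast.

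The beta genes of the constitutive core, Psmb1 to Psmb6, were not called in any 2-group comparison in which they were tested. Psmb7 was tested in none, and Psmb5 in the postnatal and the vehicle and inhibitor tables alone. In postnatal Littman mice the log2 differences ran from -0.46 for the catalytic gene Psmb5 (15.1 and 20.8 CPM) to 0.37 for Psmb1 (164 and 126 CPM, edgeR adjusted p = 0.107). In the vehicle groups Psmb5 averaged 36.9 CPM with tamoxifen and 73.0 CPM with oil in Cre+ libraries, a log2 difference of -0.91 that was not called (edgeR adjusted p = 0.109).

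Psmb6 (ENSMUSG00000018286, chromosome 11, 70525367 to 70527858, plus strand), which encodes the caspase-like cutting subunit, was called in the test of whether the UC2288 difference depended on Cre. It read 229, 309, 248, 281 and 262 CPM with UC2288 and 199, 180.0, 159.5 and 128 CPM with vehicle in Cre+ mice, without overlap. These 2 groups did not overlap for 242 of all 4953 tested genes and for 1 of the 36 tested proteasome genes. In Cre- mice Psmb6 read 159, 77.1 and 211 CPM with UC2288 and 222, 188, 254, 236 and 291 CPM with vehicle, with overlap. Thus UC2288 libraries were higher on average in Cre+ mice (log2 0.65, edgeR adjusted p = 0.117) and lower in Cre- mice (-0.63, edgeR adjusted p = 0.396), neither of which was called alone. The difference between these differences was 1.27 ± 0.33 on the log2 scale, with an edgeR adjusted p of 0.0410. It was lost on leaving out any 1 of 13 of the 17 libraries, that is any but UC2288 Cre- replicate 3, UC2288 Cre+ replicates 1 and 5 and vehicle Cre- replicate 4, with an edgeR adjusted p of up to 0.178. It was also lost with no low-count filter (edgeR adjusted p = 0.0512), with the compared groups fitted alone (0.0530) and with sex as a covariate (0.0541).

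No gene of the 19S particle was called in any comparison by edgeR or DESeq2. At an unadjusted p under 0.05, edgeR's tests held none of 90 tests of Psmc genes and 7 of 178 tests of Psmd genes, while 2.21% to 42.4% of all genes passed it, depending on the comparison. Of 6 tested ATPase genes, 5 had a positive log2 fold change in postnatal Littman mice, from -0.05 for Psmc1 to 0.43 for Psmc4 (35.8 and 26.7 CPM, edgeR adjusted p = 0.469). In vehicle Cre+ against Cre- mice 2 of 6 were positive, from -0.35 for Psmc4 to 0.02 for Psmc1. Of the non-ATPase and base assembly genes, Psmd13 was lowest (-0.11) and Psmd14, the ubiquitin-removing enzyme of the lid, highest (0.26) among the 12 tested in postnatal Littman mice. In vehicle mice Psmd12 was lowest (-0.30) and Psmd8 highest (0.29) of 11. With UC2288 Psmd14 averaged 155 CPM in Cre+ and 81.7 CPM in Cre- libraries without overlap, but the log2 difference of 0.91 was not called (edgeR adjusted p = 0.256).

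**Figure D3:**
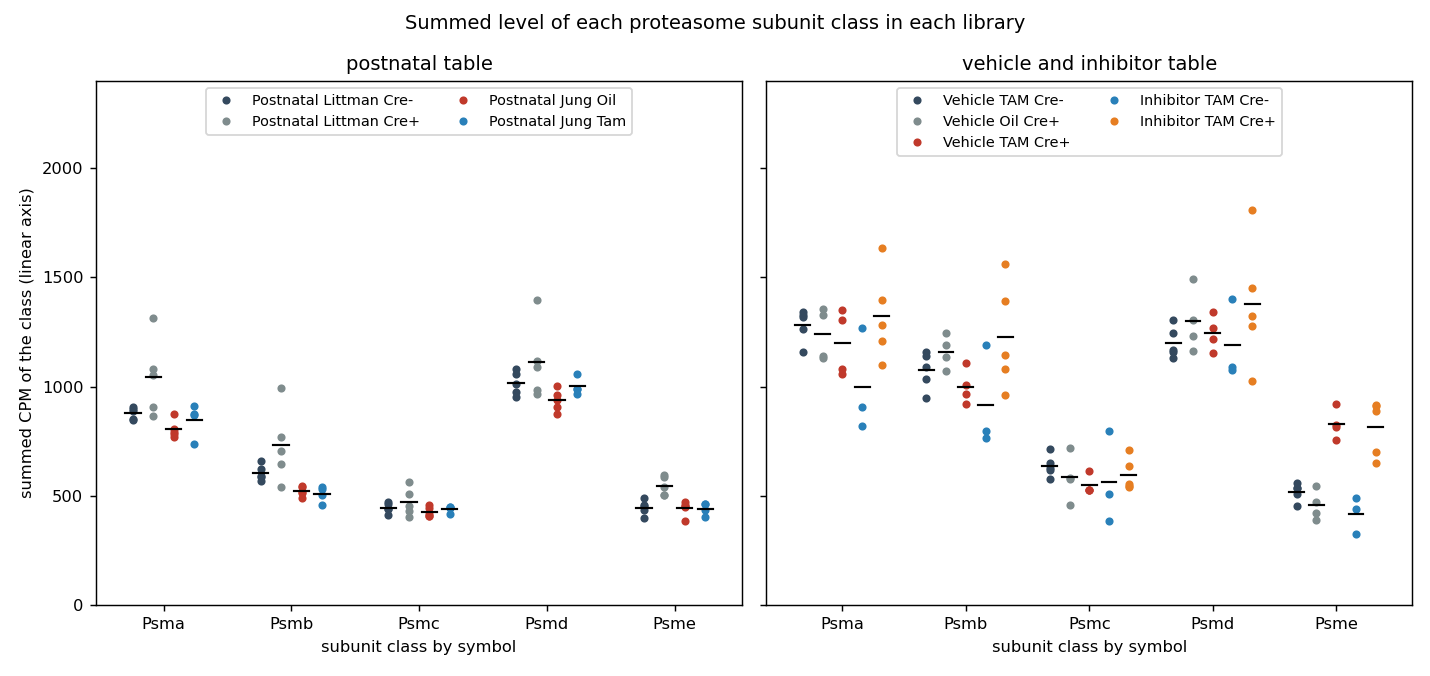
Summed CPM of each subunit class (horizontal axis) in each library (points, coloured by group) with group means (bars) in the postnatal (left) and the vehicle and inhibitor table (right). The Psme sums of the tamoxifen-treated Littman Cre+ libraries lie above those of their controls without overlap, while the Psma, Psmb, Psmc and Psmd sums of these groups overlap.

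The genes of each class were also summed, without a test. The activator sums hold Psme1, Psme2 and Psme4, which were called in the vehicle groups, so they describe the same values again. In the vehicle groups the activator genes (Psme) summed to 827 ± 68.0 CPM in tamoxifen-treated Cre+ libraries, 517 ± 39.9 CPM in Cre- and 457 ± 68.3 CPM in oil-treated Cre+ libraries, ratios of 1.60 and 1.81 without overlap. The same ratios were 0.935 and 0.967 for the alpha genes, 0.931 and 0.862 for the beta genes, 0.860 and 0.939 for the ATPase genes and 1.04 and 0.958 for the Psmd genes. The beta sums include Psmb10. Without it they were 866 ± 69.7 CPM in tamoxifen-treated Cre+, 1003 ± 86.0 CPM in Cre- and 1052 ± 54.3 CPM in oil-treated Cre+ libraries. With TMM scaling the tamoxifen-treated Cre+ libraries (798 to 951 CPM) then lay below all oil libraries (979 to 1109 CPM), while they overlapped the Cre- libraries. With raw library totals in place of TMM the log2 ratio of Cre+ to Cre- turned positive for the alpha (0.089) and beta (0.077) sums. That of tamoxifen to oil turned positive for the alpha (0.079), ATPase and Psmd sums, so these directions depended on the scaling. In postnatal Littman mice the sums were higher in Cre+ in every class, by 1.19 for alpha, 1.21 for beta, 1.06 for ATPase, 1.09 for Psmd and 1.22 for activator genes, and the activator sums alone did not overlap (545 ± 43.7 against 445 ± 34.1 CPM). On leaving out 1 library the log2 ratio fell to as little as 0.155 for alpha, 0.136 for beta, 0.017 for ATPase, 0.031 for Psmd and 0.254 for activator genes. With UC2288 the Cre+ to Cre- ratios were 1.33, 1.34, 1.06, 1.16 and 1.95 in that order, and again the activator sums alone did not overlap (814 ± 128 against 418 ± 84.1 CPM). On leaving out 1 library the log2 ratio of the ATPase sums ran from -0.13 to 0.42, so its direction depended on single libraries.

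The amount of PA28 relative to the core was expressed as Psme1 and Psme2 counts per 100 alpha counts of the same library, which does not depend on the scaling. It was 46.8 ± 5.63 in vehicle-treated Cre+ libraries with tamoxifen (range 40.3 to 52.5), 27.0 ± 1.68 in Cre- libraries (24.3 to 28.5) and 25.6 ± 5.08 in oil-treated Cre+ libraries (19.1 to 31.5). With UC2288 it was 43.5 ± 7.34 in Cre+ (34.2 to 51.3) and 28.9 ± 2.62 in Cre- libraries (27.4 to 32.0). The Cre+ tamoxifen groups lay above their controls without overlap in both settings. The postnatal Littman groups were closer, 30.9 ± 5.58 and 24.2 ± 3.98, and the postnatal Jung groups gave 27.9 after oil and 27.1 after tamoxifen.

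**Figure D4:**
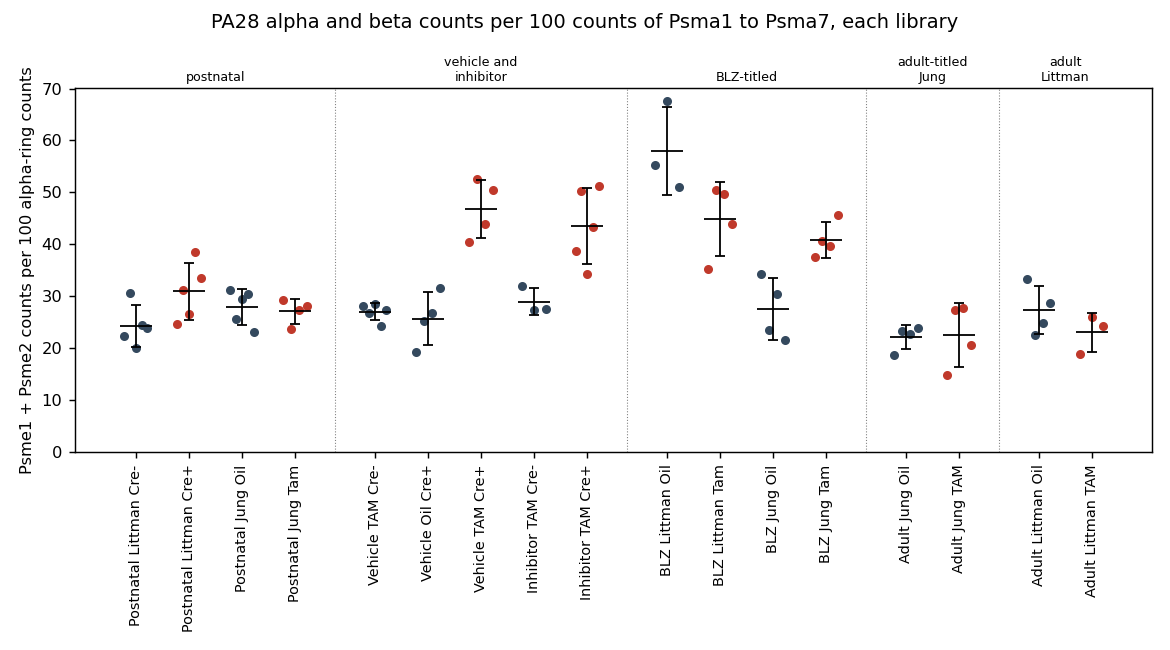
Psme1 and Psme2 counts per 100 alpha-ring counts (vertical axis) in each library (points) of all 17 groups, with the mean and SD of each group in black. Vehicle and UC2288 Cre+ libraries with tamoxifen lie at 34.2 to 52.5, above the Cre- and oil libraries of their table, and the BLZ-titled Littman groups have the highest means of their table.

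The BLZ-titled and adult tables had no called proteasome gene, and their values are given for comparison. In BLZ-titled Littman mice Psme1 was lower after tamoxifen (253, 365, 332 and 328 CPM) than after oil (513, 475 and 371 CPM) without overlap, with a log2 difference of -0.50 (edgeR adjusted p = 0.698). It was -0.63 without oil replicate 3 and -0.40 without tamoxifen replicate 1, the libraries with neutrophil markers, and was not called in either. By Xist and Y-linked genes all oil libraries read as male, tamoxifen replicate 1 as male and tamoxifen replicates 2 to 4 as female. Sex and tamoxifen can thus hardly be told apart in this contrast, in which 474 of 5163 tested genes did not overlap. In BLZ-titled Jung mice Psme1 read 164, 256, 289.95 and 311 CPM after tamoxifen and 186, 121, 214 and 89.5 CPM after oil, with overlap. The log2 difference was 0.76 ± 0.25 (edgeR adjusted p = 0.806). The difference between the lines was -1.26 ± 0.34 and was not called (edgeR adjusted p = 0.357). PA28 per 100 alpha counts was 44.8 ± 7.06 after tamoxifen (range 35.2 to 50.5) and 58.0 ± 8.54 after oil (51.1 to 67.5) in the Littman mice, and 40.8 ± 3.41 (37.5 to 45.5) and 27.4 ± 5.98 (21.5 to 34.2) in the Jung mice. The groups did not overlap in either line, with tamoxifen lower in the Littman and higher in the Jung mice. Cell markers differed here too. The microglia sum was 12461 to 20224 CPM after tamoxifen and 21632 to 22951 CPM after oil in Littman mice, and 20460 to 24840 and 19086 to 25549 CPM in Jung mice. The monocyte sum was 15.4 to 131 and 57.0 to 180 CPM in Littman mice, and 5.30 to 11.4 and 5.63 to 16.9 CPM in Jung mice. The part of these markers in the PA28 values was not tested. Psme2 averaged 146 and 174 CPM in the Littman and 155 and 97.9 CPM in the Jung mice after tamoxifen and oil, and Psmb10 202 and 220 CPM and 118 and 124 CPM, none of them called. In adult Littman mice Psme1 averaged 144 CPM after tamoxifen and 157 CPM after oil, Psme2 93.2 and 116 CPM, and Psmb10 66.9 and 96.7 CPM. In adult-titled Jung mice the averages were 140 and 135 CPM, 95.2 and 72.4 CPM, and 78.3 and 67.9 CPM. The PA28 ratio was 23.0 and 27.3 in adult Littman and 22.6 and 22.1 in adult-titled Jung libraries after tamoxifen and oil.

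UC2288 against vehicle moved no proteasome gene past the threshold within either genotype. In Cre+ mice Psme1 averaged 357 CPM with UC2288 and 312 CPM with vehicle (log2 0.19), Psme2 224 and 244 CPM (-0.12), and the log2 difference of Psmb10 was 0.14. In Cre- mice Psme2 averaged 97.1 and 140 CPM (log2 -0.51, edgeR adjusted p = 0.557). The log2 differences of all 7 tested alpha genes were below 0 in Cre- mice, from -0.90 for Psma4 (67.8 and 129 CPM, edgeR adjusted p = 0.358) to -0.16 for Psma1, and none was called. The UC2288 Cre- group had 3 libraries, 1 of them the shallowest of the series, and these comparisons share their vehicle libraries with those above.

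Genes that work with the proteasome were taken from 5 lists, and each count is read against the background of its comparison. In postnatal Littman mice 1 of 4 tested assembly factors was called higher, Pomp, which matures the core (376 ± 52.7 and 271 ± 46.4 CPM, log2 0.47, edgeR adjusted p = 0.00379), with Nfe2l2, a transcription factor of the oxidative stress response (log2 0.35), and Rps27a, a ubiquitin and ribosomal fusion gene (log2 0.54), where 7.8% of all genes were called. In vehicle Cre+ against Cre- mice 2 of 10 tested partner genes were called higher, Ddi2, the protease that activates Nfe2l1 (125 and 55.5 CPM, log2 1.16), and Ecpas, a proteasome adaptor (167 and 91.6 CPM, log2 0.87), while the ubiquitin genes Rps27a (-0.72) and Ubb (-0.65) were called lower, 2 of 5 tested, where 27.2% of all genes were called. Against oil, where 31.4% of all genes were called, Ddi2 (1.55), Ecpas (0.83) and Nfe2l2 (0.98) were called higher and Rps27a (-0.88) lower. Rps27a was thus higher in Cre+ mice in the postnatal table and lower in the vehicle table. No gene of the list of the p97 unfoldase and its adaptors was called by edgeR in these contrasts. In the UC2288 contrast of Cre+ and Cre- mice no gene of the 5 lists was called.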

How the data were processed

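CEL-Seq2 libraries of 500 sorted microglia each (70 libraries, 5 tables) were analysed from the raw whole-number counts per gene that the authors deposited. UMI-tools, Trim Galore, HISAT2 and featureCounts were used with GRCm38, per the submitters' processing notes. Their versions, settings, gene annotation and use of strand were not given in the sources used here. Tags are read at the 3′ end, so counts of genes with near-identical copies can be split or lost.

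Every column was mapped to a sample by its title, and groups were compared within a table. Counts were tested with edgeR 4.0.16 in R 4.3.3 (filterByExpr by group, TMM, quasi-likelihood, all groups of a table in 1 fit, Benjamini-Hochberg over all tested genes, threshold 0.05). CPM use TMM-scaled totals, and the SE of a log2 fold change is its size over the square root of F. Class sums and counts per 100 alpha counts carry no test. DESeq2 1.42.0, upper-quartile scaling, no low-count filter, the compared groups alone, sex as a covariate, a replicate block and leaving out each library were the alternatives. Scripts were tested on simulated counts.

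Genes named are every called proteasome gene, Psme1, Psme2 and Psmb10 throughout, the lowest and highest fold change of a class described, the catalytic beta and other activator genes, and called genes of the pathway lists with Psmb8 and Psmb9. Members and lists were chosen with earlier results of these data known. Promoters are from RefSeq (GRCm38.p6) and coordinates from GENCODE on GRCm38.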

Additional observations from a re-analysis of the deposited data

Results flagged for a closer look

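Groups of 4 to 10 libraries were checked for a single library far from the others by Dixon's criterion at 95%. The values checked were the Psma, Psmb, Psmc, Psmd and Psme sums, the sum of all proteasome genes, and each called gene in the groups compared. Of 104 checks, 6 held such a library, and about 5.2 are expected by chance (1 in 20). The checks share genes and libraries, so they are not independent. The Psmb sum of BLZ-titled Littman tamoxifen replicate 1 was 998 CPM, against 1125 to 1143 CPM in the others. The Psmc sum of vehicle Cre+ tamoxifen replicate 1 was 612 CPM, against 525.7 to 527.8 CPM. The Psme sum of postnatal Jung oil replicate 5 was 385 CPM, against 448 to 471 CPM. The sum of all proteasome genes in vehicle Cre- replicate 1 was 4363 CPM, against 4791 to 4878 CPM. Psme2 read 198 CPM in vehicle Cre- replicate 5, against 118 to 131 CPM, and this library overlapped the Cre+ group. Psme4 read 5.83 CPM in vehicle oil Cre+ replicate 3, against 28.3 to 31.9 CPM.

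The difference that UC2288 made to Psmb6 differed between Cre+ and Cre- mice by 1.27 on the log2 scale, by the contrast of the 4 groups in edgeR (adjusted p = 0.0410), with the UC2288 libraries above all vehicle libraries in Cre+ mice and overlapping them in Cre- mice. This call was lost without any 1 of 13 of the 17 libraries, with no low-count filter, with the compared groups fitted alone and with sex as a covariate.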

How the results depend on the processing

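Of the 15 counts of called proteasome genes, upper-quartile scaling moved none by over 1.5 times. The postnatal Littman count fell from 2 to 1 by DESeq2 and with the compared groups alone, the vehicle Cre+ against Cre- count from 4 to 2 with no low-count filter, and the UC2288 Cre+ against Cre- count from 3 to 1 with the compared groups alone or a replicate block. The gene that remained there was Psme2: under the block the edgeR adjusted p was 0.0667 for Psme1 and 0.157 for Psmb10. The UC2288 by Cre count went from 1 to 0 with no filter, the compared groups alone, sex as a covariate or a replicate block (Psmb6, edgeR adjusted p = 0.0771 with the block). The block moved no other count by over 1.5 times. The replicate numbers did not pair the libraries: correlations of same-numbered libraries ran from -0.359 to 0.344, in no comparison was every pair over 0.1, and in none did every library correlate best with its own number.

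On leaving out each library in turn, the counts ranged from 1 to 4 (postnatal Littman), 0 to 1 (postnatal line difference), 1 to 4 (vehicle Cre+ against Cre-), 0 to 4 (UC2288 Cre+ against Cre-) and 0 to 2 (UC2288 by Cre). The postnatal Littman count was 4 without Cre+ replicate 2 (Psma1, Psma7, Psmb1, Psme1), the vehicle count 1 without Cre+ replicate 2 (Psme4) and 2 without Cre- replicate 1, and the UC2288 count 0 without Cre- replicate 1, 1 without Cre- replicate 2, and 4 without Cre- replicate 3 (Psma7, Psmb6, Psme1, Psme2). Psme1 in postnatal Littman mice, Psme4 in both vehicle contrasts and Psme1 in vehicle tamoxifen against oil were called in every such fit. The cause of these changes was not tested.

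Among the named genes, directions that reversed were all of uncalled differences. By setting, the log2 values were -0.00042 for Psme1 in postnatal Jung (DESeq2), 0.035 for Psmb10 in postnatal Jung and 0.044 for Psmb10 in UC2288 against vehicle in Cre- mice (replicate block), -0.014 for Psme2 in vehicle oil Cre+ against Cre- (upper-quartile scaling) and 0.029 for Psme1 in adult Littman mice (sex covariate). On leaving out 1 library, Psmb10 ranged from -0.21 to 0.22 (BLZ-titled Jung), -0.34 to 0.092 (BLZ-titled line difference), -0.18 to 0.13 (postnatal Jung), -0.0058 to 0.41 (UC2288 by Cre) and -0.27 to 0.14 (UC2288 against vehicle in Cre- mice). Psme1 ranged from -0.25 to 0.028 (adult Littman), -0.10 to 0.25 (adult-titled Jung) and -0.080 to 0.081 (postnatal Jung). Psme2 ranged from -0.085 to 0.21 (postnatal Jung), -0.23 to 0.072 (UC2288 against vehicle in Cre+ mice) and -0.037 to 0.19 (vehicle oil Cre+ against Cre-).

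With raw library totals the log2 class ratios of vehicle Cre+ to Cre- were 0.089 (Psma), 0.077 (Psmb), -0.038 (Psmc), 0.233 (Psmd) and 0.863 (Psme), and that of Psmb for tamoxifen to oil was -0.090. With TMM and 1 library left out, the ratios of vehicle Cre+ tamoxifen to oil changed sign for some classes. They ran from -0.111 to 0.008 (Psma), -0.190 to 0.024 (Psmc) and -0.111 to 0.011 (Psmd). Depth limits the vehicle and inhibitor table most: Psme4 had 14 counts in its oil group and Psme2b 12 in its UC2288 Cre- group.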
